A study of Mus musculus with 15 samples.

Results

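The ventral midbrain of the mouse embryo was compared with the alar plate by RNA sequencing of dissected tissue, using the 3 ventral midbrain and the 3 alar plate libraries, 6 of the 15 in the study. Both groups came from C57bl/6 mouse embryos at stage E12.5 that carried green fluorescent protein under the promoter of tyrosine hydroxylase (Th), the enzyme that starts dopamine synthesis, and no treatment or mutation separated them. The labels do not state from which stretch of the brain the alar plate was cut, nor whether the samples of a region were separate embryos, and p-values therefore reflect only how these samples vary, some of which may be technical. Whole regions rather than sorted cells were sequenced, and a lower value for a cell type's genes can mean fewer such cells or less RNA in each, which cannot be told apart.

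The neural tube is divided from ventral to dorsal into a floor plate, a basal plate and an alar plate. The floor plate secretes the morphogen Sonic hedgehog, and in the midbrain its own progenitors, marked by the transcription factors Foxa2 and Lmx1a, give rise to the dopaminergic neurons that later form the substantia nigra and ventral tegmental area. The alar plate lies beyond the reach of that signal and forms sensory structures such as the tectum, whose progenitors and young neurons express factors of the Pax, Lhx, Barhl and Tfap2 families.

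Values were deposited as RPKM, reads scaled for the length of the gene and the size of the library, and were compared as log2(RPKM + 1). Differences below are ventral midbrain minus alar plate on that scale, on which changes of genes with low expression come out too small. A gene was called where limma, fitted to all 5 regions of the study, gave an adjusted p under 0.05 over the 13177 genes that reached 1 RPKM in at least 3 of the 6 libraries. A gene could pass this filter through a single group, and its direction was then largely set by the filter, which bears on the counts of every gene list below. Reads recovered from the values numbered between 8330771 and 12601534 per library. The standard error (SE) of a difference draws on the spread within all 5 regions.

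The libraries of the ventral midbrain were close to each other and those of the alar plate were not. Pearson r across genes was 0.991 to 0.994 between ventral midbrain libraries and 0.989 between alar plate 1 and 2, but 0.925 and 0.923 between alar plate 3 and those. Alar plate 1 and 2 differed by at least 1 on the log2 scale at 131 genes (0.994% of those tested), whereas alar plate 1 and 3 did so at 1859 (14.1%). Alar plate 3 also carried a trend with gene length: its deviation from the mean of the other 5 libraries had a Spearman correlation of -0.61 with length across 13144 genes. The median deviation of alar plate 3 was 0.59 for the 3286 shortest genes and -0.60 for the 3286 longest. The same correlation was 0.25 to 0.38 in each of the other 5 libraries. The mean that each of those was set against includes alar plate 3, which by itself pushes their values the opposite way. Those correlations therefore cannot be read as trends of those libraries.

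For that reason each call was also made without alar plate 3, and after a smooth trend on length had been taken out of every library, both alternatives chosen with earlier results known. Of 13177 genes, 1943 were called (14.7%), 1240 of them higher in the ventral midbrain (9.41%) and 703 lower (5.34%). Without alar plate 3 there were 1247 higher (9.46%) and 851 lower (6.46%), 15.9% in all, and with the length trend removed 1172 higher (8.89%) and 1804 lower (13.7%), 22.6% in all. Higher genes thus made up 63.8% of the calls with all libraries, 59.4% without alar plate 3, 52.7% after quantile normalization and 39.4% after removal of the length trend. The split of calls between higher and lower therefore depended on the processing. Among the 3286 longest genes 461 were called higher and 63 lower with all libraries, 387 and 212 without alar plate 3, and 316 and 444 with the trend removed. All 3 fits called 1406 genes in the same direction (10.7%), 923 higher (7.0%) and 483 lower (3.67%), and the genes described below belong to these unless stated. The 3 libraries of each group lay apart without overlap at 40.2% of genes, 19.6% with the ventral midbrain above and 20.6% with it below.

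**Figure D1:**
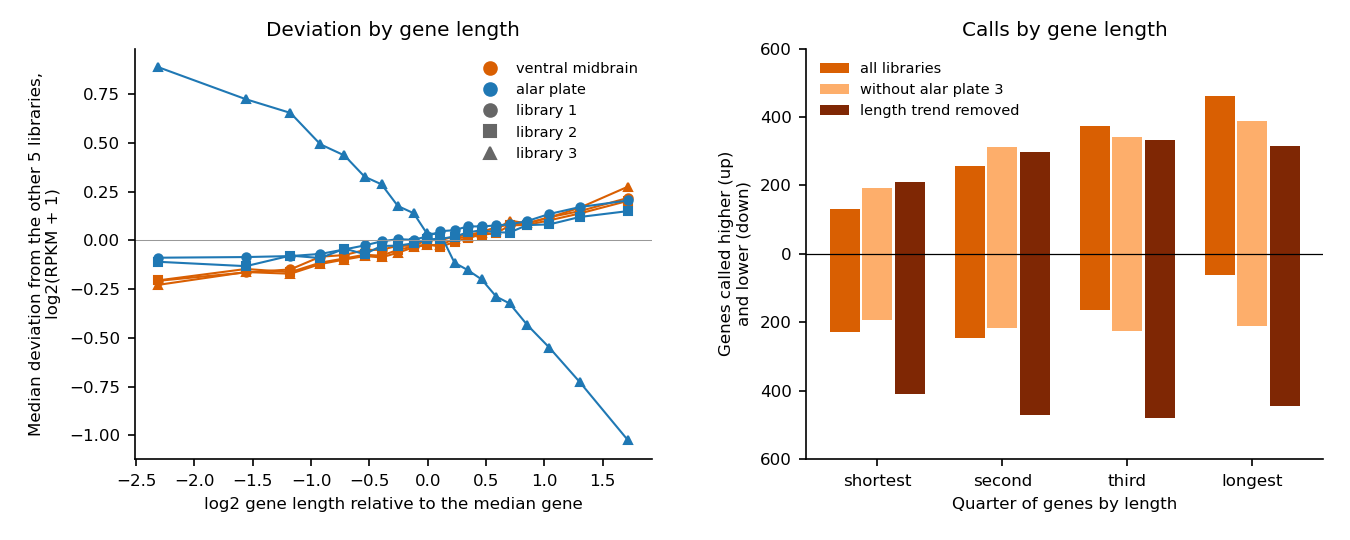
Left, median deviation of each library from the mean of the other 5, in log2(RPKM + 1), for 20 bins of genes by length (x axis, log2 relative to the median gene), with ventral midbrain in orange, alar plate in blue and the library number as the marker. Right, genes called higher (up) and lower (down) in the ventral midbrain per class of 3286 genes by length in 3 fits. Alar plate 3 falls steeply with length. The slight rise of the other 5 libraries is drawn against means that include alar plate 3, so it is not a trend of their own. The excess of higher calls among the longest genes (461 against 63) is smaller without alar plate 3 (387 against 212).

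Regulators of ventral and dorsal identity were among the genes with the largest differences, beside enzymes, matrix proteins and 1 gene known by a clone identifier. Foxa2, a forkhead factor that specifies the floor plate, was at 75.5, 70.3 and 70.8 RPKM in ventral midbrain 1 to 3 and at 0, 0.0722 and 0.0439 RPKM in alar plate 1 to 3, which were 0, 2 and 1 reads. Lhx2, a LIM homeobox factor of dorsal midbrain and forebrain progenitors and neurons, was at 0.279, 0.536 and 0.467 RPKM in the ventral midbrain and at 107, 121 and 141 RPKM in the alar plate. Neither gene overlapped between the groups, and the differences were 6.14 (SE 0.77; limma, adjusted p = 0.000158) for Foxa2 and -6.43 (SE 0.59; limma, adjusted p = 1.16e-05) for Lhx2. Both genes were picked from the extremes of this comparison, so they are no check of the labels.

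**Figure D2:**
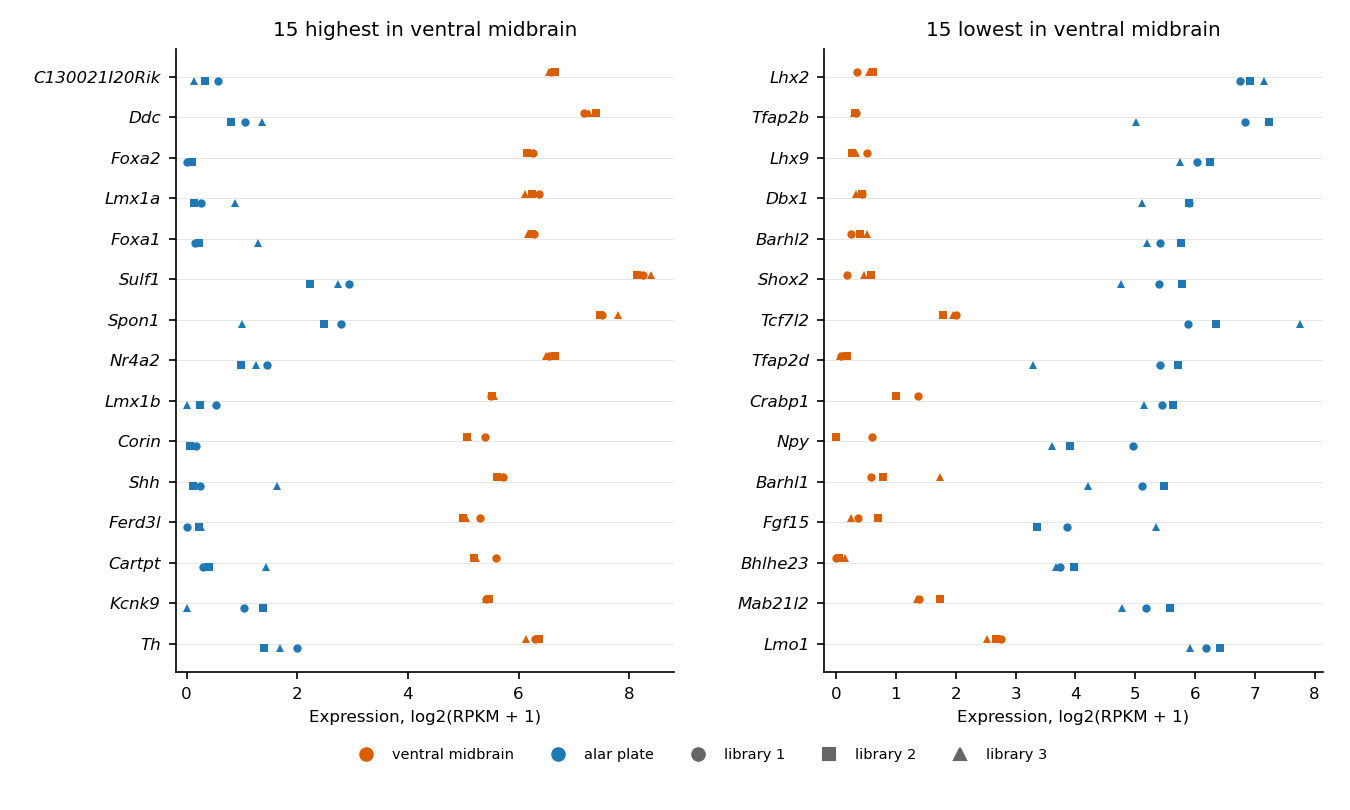
Expression in log2(RPKM + 1) of the 15 genes with the highest and the 15 with the lowest difference among called genes whose groups do not overlap, with a mean of at least 5 RPKM in the higher group. Each point is 1 library, orange for ventral midbrain and blue for alar plate, with the marker giving the library number; the 3 ventral midbrain points lie close together for nearly every gene, and alar plate 3 lies apart from alar plate 1 and 2 for Tfap2b, Tfap2d and Tcf7l2.

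Floor plate and dopaminergic progenitor genes were mostly higher in the ventral midbrain. Of the 20 genes listed, 16 were higher in the ventral midbrain and none lower, with a median difference of 4.24 against -0.01 over all genes tested, and the 16 held in all 3 fits. The counts of this and each later list stand beside 9.41% higher and 5.34% lower over all genes tested. Foxa1, the partner of Foxa2, was at 77.1, 74.8 and 71.4 RPKM in the ventral midbrain and at 0.112, 0.171 and 1.46 RPKM in the alar plate. Lmx1a, the LIM homeobox factor that directs floor plate cells towards the dopaminergic fate, was at 81.8, 74.4 and 68.6 RPKM against 0.192, 0.0935 and 0.825 RPKM. Alar plate 3 was thus the highest of the 3 for both genes, though far below any ventral midbrain library.

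The differences were 5.68 (SE 0.61; limma, adjusted p = 4.09e-05) for Foxa1 and 5.83 (SE 0.84; limma, adjusted p = 0.000477) for Lmx1a. Lmx1b, its close relative, differed by 5.27, and Corin, a membrane protease of the midbrain floor plate, by 5.07. Sonic hedgehog (Shh) itself was at 51.8, 48 and 51.7 RPKM in the ventral midbrain and at 0.186, 0.0871 and 2.12 RPKM in the alar plate, a difference of 5.02 (SE 0.46; limma, adjusted p = 1.16e-05). Here too alar plate 3 lay above the other 2 without approaching the ventral midbrain.

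Among regulators downstream of Lmx1a, Msx1 was at 13, 12.8 and 10.9 RPKM in the ventral midbrain and at 1.88, 0.396 and 2.5 RPKM in the alar plate, and Ferd3l, a basic helix-loop-helix factor of the floor plate, differed by 4.96. Secreted proteins were among the most abundant of the group. Sulf1, which trims heparan sulphate and so alters morphogen binding, was at 303, 280 and 336 RPKM against 6.68, 3.68 and 5.67 RPKM. Spon1, a floor plate matrix protein that guides axons, was at 180, 177 and 221 RPKM against 5.94, 4.6 and 1.01 RPKM. Their differences were 5.62 for Sulf1 and 5.49 for Spon1.

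Genes of the list that were not called included Otx2, Rspo2 and Calb1. Otx2, which gives the midbrain and forebrain their identity, was at 65.2, 44.3 and 47.6 RPKM in the ventral midbrain and at 82.8, 81.1 and 59.1 RPKM in the alar plate, so that the groups overlapped. Calb1, a calcium-binding protein of some dopaminergic and other neurons, was at 1.01, 0.546 and 0.94 RPKM in the ventral midbrain and at 1.39, 2.76 and 18.9 RPKM in the alar plate, with no overlap and alar plate 3 far above the rest. Rspo2, a secreted enhancer of Wnt signalling, reached 5.37 RPKM in alar plate 3 and at most 0.327 RPKM in the other 2, against 9.78 to 12.4 RPKM in the ventral midbrain.

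Genes of dopaminergic neurons were the next group, from dopamine synthesis to trophic receptors. Of 22 genes listed, 19 were tested, and 16 of those were higher in the ventral midbrain with none lower, at a median difference of 3.23. The call was lost for En2 without alar plate 3 and for Dlk1 with the length trend removed, leaving 14 in all 3 fits. Dlk1, at 46.9, 59.4 and 55.9 RPKM against 12.1, 7.99 and 35.5 RPKM, also lost it when any of 5 libraries was left out (limma, adjusted p = 0.0549 to 0.0934; alar plate 1, alar plate 2 or any ventral midbrain library). The enzymes and transporters came first: Th was at 77.5, 81.7 and 68.9 RPKM in the ventral midbrain and at 2.96, 1.64 and 2.21 RPKM in the alar plate, a difference of 4.57 (SE 0.24; limma, adjusted p = 1.18e-07). Ddc, which makes dopamine from the product of Th, was at 144, 167 and 153 RPKM against 1.07, 0.734 and 1.56 RPKM, a difference of 6.21 (SE 0.60; limma, adjusted p = 1.71e-05). Both genes were tight within each group.

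The vesicular transporter Slc18a2 was at 43.5, 48.2 and 47.2 RPKM in the ventral midbrain and at 1.92, 1.3 and 11.2 RPKM in the alar plate, where alar plate 3 stood out again. Slc6a3, the transporter that takes dopamine back up, was still low in the ventral midbrain, at 6.55, 11.1 and 9.88 RPKM, and was covered by 2, 0 and 0 reads in the alar plate. Gch1, which makes the cofactor of Th, was at 14, 13.9 and 14 RPKM against 0.487, 0.309 and 0.683 RPKM. The differences were 3.45 for Slc18a2, 3.30 for Slc6a3 and 3.33 for Gch1.

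Among the transcription factors of these neurons, Nr4a2 (Nurr1) was at 92.7, 99.7 and 89.1 RPKM in the ventral midbrain and at 1.73, 0.979 and 1.39 RPKM in the alar plate. Its difference was 5.34 with an SE of 1.01, which draws also on the dorsal midbrain, where the 3 libraries held 0.827, 0.781 and 32.6 RPKM. Pitx3, which maintains nigral neurons, was at 20.4, 27.9 and 25.6 RPKM against 1.34, 0.653 and 0 RPKM, a difference of 4.02 (SE 0.33; limma, adjusted p = 5.13e-06). The trophic factor receptor genes Ret and Gfra1, which bind GDNF together, were higher by 2.46 each. The nicotinic receptor subunit Chrna6 was at 6.79, 10.8 and 8.16 RPKM against 0.0244, 0 and 0 RPKM. Sncg, Bnc2 and Satb1 were the 3 tested genes of the list that were not called, with differences of -0.47, -0.14 and 0.01.

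The engrailed genes En1 and En2, needed for the survival of dopaminergic neurons and for patterning around the midbrain-hindbrain boundary, showed how uneven the alar plate was. En1 was at 67, 76.7 and 67.5 RPKM in the ventral midbrain and at 4.43, 2.79 and 0.405 RPKM in the alar plate, a difference of 4.54 (SE 0.67; limma, adjusted p = 0.000521). En2 was at 85.9, 87.7 and 86.6 RPKM in the ventral midbrain and fell into 3 separate levels in the alar plate, 28.2, 18.7 and 5.32 RPKM. The groups did not overlap for En2, but its difference of 2.51 (SE 0.75; limma, adjusted p = 0.0398) was no longer called without alar plate 3, at 1.87 (limma, adjusted p = 0.123), nor without any ventral midbrain library, forebrain 3 or hindbrain 2 (limma, adjusted p = 0.0512 to 0.11).

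The bases just before the start sites of Th, Ddc and Pitx3 are shown because these 3 genes are on the dopaminergic neuron list and differed together. They cover 250 bases before the RefSeq start site, the most upstream one where a gene has several (Ddc has 2), on GRCm38.p6, a later build than the mm9 of the deposited values, read 5′ to 3′ on the minus strand that carries each gene. Positions are chr7:142899996-142900245 for Th, chr11:11898145-11898394 for Ddc and chr19:46148326-46148575 for Pitx3. Capitals mark matches on either strand to the E-box CANNTG or to TGACAG, a core bound by MEIS and TGIF factors.
Th: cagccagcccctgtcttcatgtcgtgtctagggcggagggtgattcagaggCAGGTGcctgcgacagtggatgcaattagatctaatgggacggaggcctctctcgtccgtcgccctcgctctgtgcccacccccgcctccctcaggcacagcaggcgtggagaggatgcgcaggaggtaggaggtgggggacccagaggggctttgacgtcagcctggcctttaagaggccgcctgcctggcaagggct
Ddc: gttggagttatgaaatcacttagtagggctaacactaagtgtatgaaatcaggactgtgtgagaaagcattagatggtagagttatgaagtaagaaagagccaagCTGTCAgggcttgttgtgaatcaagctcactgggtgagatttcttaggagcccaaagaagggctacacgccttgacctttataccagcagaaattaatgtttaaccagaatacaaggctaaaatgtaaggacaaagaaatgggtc
Pitx3: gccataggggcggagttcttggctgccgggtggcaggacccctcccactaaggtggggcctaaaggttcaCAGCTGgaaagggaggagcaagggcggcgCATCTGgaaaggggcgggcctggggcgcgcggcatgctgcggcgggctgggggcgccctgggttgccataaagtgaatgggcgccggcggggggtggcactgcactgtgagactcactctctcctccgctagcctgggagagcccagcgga

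Th held 1 E-box, which starts 199 bases before the start site, Pitx3 held 2, at 180 and 151 bases, and Ddc held 1 TGACAG on the opposite strand, at 145 bases. The forkhead motif TGTTTAC and the homeodomain core TAATTA, also looked for on both strands, were in none of the 3 windows. Windows of the same length were found for 9057 of the 13177 genes tested, and 55.6% of them held the E-box, 13.6% TGACAG, 1.91% TGTTTAC and 2.08% TAATTA. Among genes higher in all 3 fits with a window (640) the shares were 61.7%, 11.7%, 1.56% and 2.66%, and among those lower (348) they were 49.4%, 14.1%, 1.44% and 2.3%. These are matches of letters only, with no measure of binding.

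Genes of other ventral neurons were mostly higher as well. Of 10 tested genes of motor and red nucleus neurons, 7 were higher in the ventral midbrain, 1 was lower and 2 were not called, with a median difference of 1.94. The cholinergic genes Slc18a3 and Slc5a7 differed by 2.46 and 2.38. Isl1, a factor of motor neurons and of several forebrain neurons, was not called: it was at 20.1, 14.7 and 14.3 RPKM in the ventral midbrain and at 1.09, 0.826 and 18.4 RPKM in the alar plate. Alar plate 3 alone overlapped the ventral midbrain for Isl1. Prph, a neurofilament protein of peripheral and motor neurons, was the 1 lower gene, with 0.709 to 1.78 RPKM in the ventral midbrain and 4.03 to 7.21 RPKM in the alar plate. Its call was lost when any of 10 libraries was left out, alar plate 1 and 2 and all ventral midbrain libraries among them (limma, adjusted p = 0.0513 to 0.134).

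Genes of serotonergic neurons, which arise next to the midbrain in the ventral hindbrain, were also read in the ventral midbrain libraries. Of 7 tested genes 5 were higher and none lower (1 lower without alar plate 3). The 5 (Fev, Tph2, Slc6a4, Slc22a3 and Maob) reached 1 RPKM in the ventral midbrain libraries only. They entered the test through that group alone, so their direction was largely set by the filter. Fev, the factor that defines these neurons, was at 9.27, 15.8 and 12 RPKM in the ventral midbrain and was listed at 0 in all 3 alar plate libraries. Tph2, the first enzyme of serotonin synthesis, was at 6.18, 12.8 and 10.9 RPKM against 0.0269, 0.0884 and 0.0717 RPKM, and the serotonin transporter Slc6a4 was at 14.2, 25.6 and 20.2 RPKM against 0.129, 0.0282 and 0.24 RPKM. In all 3 genes ventral midbrain 1 was the lowest of its group, and the differences were 3.71 for Fev, 3.32 for Tph2 and 4.18 for Slc6a4. Gata2 and Gata3, which serotonergic neurons share with GABAergic ones, were not called, with differences of -0.51 and -1.34.

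Ventral progenitor domains beside the floor plate gave a mixed picture: of 9 tested genes, 4 were higher, 1 was lower and 4 were not called. Nkx6-1, a homeobox factor of basal plate progenitors, was at 27.4, 24.3 and 23.5 RPKM in the ventral midbrain and at 3.53, 1.06 and 0.155 RPKM in the alar plate. Irx3, which marks a more dorsal domain, was at 10.1, 11.4 and 9.43 RPKM against 33.1, 32.4 and 18.7 RPKM. The groups did not overlap for either gene, and the differences were 3.56 (SE 0.67; limma, adjusted p = 0.0031) for Nkx6-1 and -1.32 (SE 0.25; limma, adjusted p = 0.00376) for Irx3. Nkx2-2, a direct target of hedgehog signalling, was not called and was at 3.92, 4.55 and 5.25 RPKM in the ventral midbrain and at 7.29, 4.16 and 7.94 RPKM in the alar plate.

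On the other side of the comparison, alar and tectal transcription factors were lower in the ventral midbrain as a body. Of 28 listed, 24 were tested, 17 were lower and none higher, with a median difference of -3.23, and 16 were lower in all 3 fits. Lhx9, paired with Lhx2 in many neurons, was at 0.436, 0.204 and 0.254 RPKM in the ventral midbrain and at 64.3, 75.3 and 52.6 RPKM in the alar plate, a difference of -5.64 (SE 0.39; limma, adjusted p = 1.1e-06). Tfap2b, an AP-2 factor of tectal neurons, was at 0.256, 0.25 and 0.229 RPKM against 113, 149 and 31.3 RPKM, and Barhl2 was at 0.184, 0.318 and 0.423 RPKM against 41.6, 53.5 and 35.8 RPKM. No alar plate library came near the ventral midbrain for these genes, although alar plate 3 was the lowest of its group in each.

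Genes of alar progenitors followed. Dbx1, a homeobox factor of the alar and intermediate progenitor zone, was at 0.357, 0.353 and 0.256 RPKM in the ventral midbrain and at 58.9, 58.8 and 33.5 RPKM in the alar plate. Pax3 and Pax7, the paired box factors that mark the dorsal neural tube, were at 0.0559, 0.043 and 0.0703 RPKM against 10.4, 16.3 and 5.69 RPKM and at 0.0507, 0.312 and 0.127 RPKM against 13.5, 19.6 and 4.22 RPKM. Gsx1 was covered by 1, 0 and 0 reads in the ventral midbrain and by 224, 186 and 197 reads in the alar plate. The differences were -5.24 for Dbx1, -3.38 for Pax3, -3.32 for Pax7 and -3.29 for Gsx1, all called in every one of the 3 fits.

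The members of this list that did not pass the test included Pax6, Zic2, Meis1, Otx1, Bhlhe22 and Nr2f2. Pax6, which patterns the forebrain and the dorsal diencephalon, was at 0.675, 1.02 and 1.38 RPKM in the ventral midbrain and at 1.34, 0.361 and 23.9 RPKM in the alar plate. Zic2, a zinc finger factor of the dorsal midline, was at 0.723, 0.668 and 0.788 RPKM against 6.18, 1.02 and 52.9 RPKM. The values of both genes were dominated by alar plate 3. Zic1 showed the same order in the alar plate (10.5, 5.29 and 99.5 RPKM) and was called at -2.96 (limma, adjusted p = 0.0398), but not without alar plate 3, where its difference was -1.77 (limma, adjusted p = 0.101), nor without any of 9 other libraries, the 3 of the ventral midbrain among them (limma, adjusted p = 0.0525 to 0.112).

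Genes of thalamic and pretectal neurons and progenitors were lower too, 10 of the 13 tested, at a median of -3.74. Of these 13, the list shares 5 with the alar and tectal list (Barhl2, Bhlhe23, Dbx1, Lhx2 and Lhx9). Tcf7l2, a Wnt effector expressed strongly in the thalamus and pretectum, was at 3, 2.46 and 2.9 RPKM in the ventral midbrain and at 57.9, 80.4 and 215 RPKM in the alar plate, and Shox2 was at 0.131, 0.503 and 0.384 RPKM against 40.9, 54.2 and 26.1 RPKM. Six3, a factor of the anterior forebrain also found in tectal GABAergic cells, was at 0.645, 0.496 and 0.737 RPKM against 23.3, 13.6 and 11.3 RPKM. At an unadjusted p under 0.05 limma still found no gene lower in the floor plate and dopaminergic neuron lists and none higher in the alar and tectal and GABAergic lists, nor did voom call one. Prox1 was the 1 gene of the list called higher in the ventral midbrain, by 1.01, and was not called without any 1 ventral midbrain library (limma, adjusted p = 0.0698 to 0.119).

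**Figure D3:**
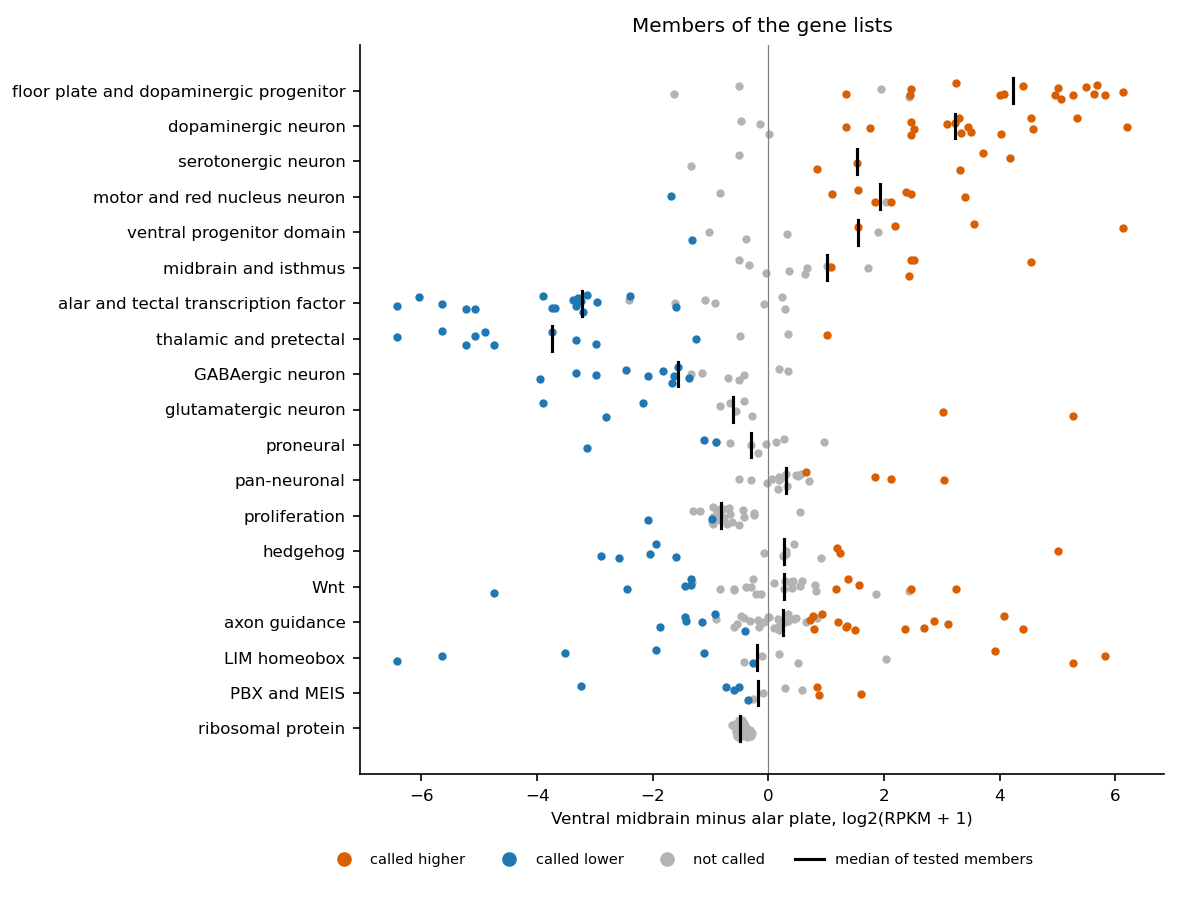
Log2 difference (ventral midbrain minus alar plate, x axis) of every tested member of 19 gene lists, with 1 point per gene, orange where called higher, blue where called lower and grey where not called, and a black bar at each list's median. The floor plate list (median 4.24) and the dopaminergic list (3.23) lie to the right, the alar list (-3.23) and the thalamic list (-3.74) to the left, and the ribosomal protein genes form a tight grey cluster just below 0 (median -0.49).

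The 3 alar plate libraries differed among themselves in markers of position along the brain, and the genes given here were chosen after their values were seen. Pax5, a paired box factor of the boundary region, was at 16.8, 2.09 and 0 RPKM in alar plate 1 to 3, which were 300, 34 and 0 reads, and at 9.92, 13.4 and 11.6 RPKM in the ventral midbrain. Fgf17, a signal from the same boundary, was at 3.57, 0.27 and 1.09 RPKM in the alar plate, and Cnpy1, a regulator of FGF signalling there, at 8.63, 4.73 and 0.37 RPKM. Alar plate 1 was the highest of the group for each of these genes. Alar plate 3 was the highest for Tcf7l2, Zic1 and Pax6, as given above, and for Neurog2, a proneural factor, at 19.1, 15.3 and 123 RPKM. Some genes of the thalamic and telencephalic lists, present in too few libraries to be tested, were far higher in alar plate 3. Among them were Gbx2, also on the isthmus list (0.0989, 0 and 73 RPKM), Olig3 (0.407, 0.297 and 51 RPKM), Tbr1 (0.054, 0.0986 and 23.2 RPKM) and Dlx1 (0.229, 0.0558 and 20.2 RPKM). Emx1 (1.96, 1.26 and 0.538 RPKM), Lhx6 and Ror1, untested as well, were lowest there. Not all tested markers of position kept to these patterns. The boundary signal Fgf8 was highest in alar plate 3 (0.776, 0 and 1.52 RPKM). Six3, a factor of the anterior forebrain and of GABAergic neurons, was highest in alar plate 1 (23.3, 13.6 and 11.3 RPKM).

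Of the 13 midbrain and isthmus genes tested, 5 were higher in the ventral midbrain, 3 of them in all 3 fits, and none was lower; the higher genes were 9 without alar plate 1 and 3 without alar plate 3 or any ventral midbrain library. The 3 in all fits were En1, Wnt1 and Fgf8, and the other 2 were En2 and Cnpy1, which was not called without alar plate 3 or any ventral midbrain library (limma, adjusted p = 0.0592 to 0.0805). Fgf8, the organizing signal of the boundary, was at 2.27, 2.89 and 2.36 RPKM in the ventral midbrain and at 0.776, 0 and 1.52 RPKM in the alar plate, a difference of 1.08. The call for Fgf8 held in 24 of the 27 alternatives in which it was tested. How far the position of each alar plate sample shaped these differences was not tested.

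**Figure D4:**
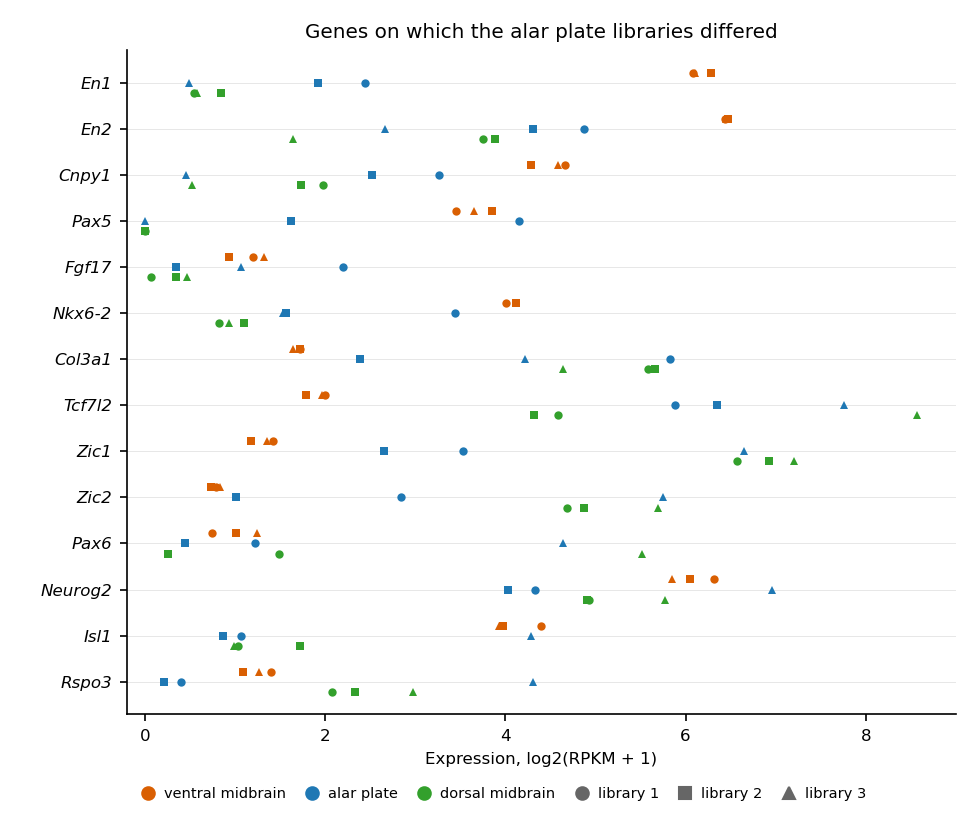
Expression in log2(RPKM + 1) of 14 genes chosen after their values were seen because the alar plate libraries differ on them, in ventral midbrain (orange), alar plate (blue) and dorsal midbrain (green), with the library number as the marker. Alar plate 1 is the highest alar plate library for En1, En2, Cnpy1, Pax5, Fgf17, Nkx6-2 and Col3a1 and alar plate 3 for Tcf7l2 down to Rspo3, and dorsal midbrain 3 stands with alar plate 3 for Tcf7l2 and Pax6.

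Genes of GABAergic neurons, which inhibit their targets and are plentiful in the developing tectum, were lower in the ventral midbrain. Of 17 tested genes 10 were lower and none higher, the same 10 in all 3 fits, with a median of -1.57. Gad1, the enzyme that makes GABA, was at 2.06, 4.23 and 4.74 RPKM in the ventral midbrain and at 23.2, 22.8 and 11 RPKM in the alar plate, a difference of -2.08 (SE 0.34; limma, adjusted p = 0.00109). Tal2, a selector gene of midbrain GABAergic neurons, was at 9.81, 9.12 and 15.4 RPKM against 101, 79.7 and 35.4 RPKM. Neither overlapped, and in both alar plate 3 was closest to the ventral midbrain. The neuropeptide gene Npy was at 0.516, 0 and 0 RPKM against 30, 14 and 11.2 RPKM, the largest difference of the list at -3.96.

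Of 10 tested genes of glutamatergic neurons 2 were higher, 3 lower and 5 not called. Slc17a8, the third vesicular glutamate transporter, was higher at 9.38, 13.2 and 12.1 RPKM against 0.161, 0.141 and 1.72 RPKM. The POU factors Pou4f2 and Pou4f3 were lower, at -2.80 and -2.18 (Pou4f2 not without ventral midbrain 1 or 3; limma, adjusted p = 0.0528 and 0.0558), while Slc17a6, the transporter common to most midbrain glutamatergic neurons, was at 27.6 to 29 RPKM in the ventral midbrain and 35.8 to 50.5 RPKM in the alar plate and was not called. Of 11 proneural factors tested, 3 were lower (1 without ventral midbrain 2 or 3) and none higher (1 without alar plate 3). Neurog1 was at 1.63, 1.16 and 1.26 RPKM in the ventral midbrain and at 20.3, 20.3 and 18.3 RPKM in the alar plate, a difference of -3.14 (SE 0.40; limma, adjusted p = 0.000164). For Neurog2 the ventral midbrain (56.7 to 78.3 RPKM) lay between alar plate 1 and 2 and alar plate 3.

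General neuronal genes differed little by comparison. Of 18 tested, 4 were higher and none lower (Nefl, Nefm, Elavl4 and Scg2), with a median of 0.31, and Elavl4 was no longer called without ventral midbrain 1 (limma, adjusted p = 0.0509). Scg2, a granin of secretory vesicles, was at 40.1, 56 and 49.6 RPKM in the ventral midbrain and at 3.78, 4.29 and 7.45 RPKM in the alar plate. The neuronal tubulin Tubb3, the most abundant of the list, had a difference of -0.31 and was not called. Of 24 proliferation genes, 2 were lower (Ccnd1 and Ccne1) and none higher, and neither held in all 3 fits. Over all genes tested 9.41% were higher and 5.34% lower. The median of the proliferation list was -0.81 (-0.51 without alar plate 3, -0.88 with the length trend removed). At an unadjusted p under 0.05 limma found 8 of its genes lower and none higher, beside 4369 of all 13177 genes in either direction. Ccne1 lost its call when any of 8 libraries was left out, alar plate 3 among them (limma, adjusted p = 0.0501 to 0.131). Ccnd1, the G1 cyclin D1, was at 23.5, 19 and 18.4 RPKM against 80.1, 88.1 and 100 RPKM, with no overlap, and its call was lost without alar plate 3 or any ventral midbrain library (limma, adjusted p = 0.0637 to 0.0948).

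Among progenitor and radial glia genes, 3 of 17 were higher (5 without alar plate 3) and 2 lower. Slc1a3, the glial glutamate transporter, was at 71.3, 72.5 and 80 RPKM in the ventral midbrain and at 15.9, 11.7 and 10.1 RPKM in the alar plate, a difference of 2.50. Prom1, a membrane protein of apical progenitors, was at 75.1, 67.8 and 69.1 RPKM against 17.7, 15.6 and 16.5 RPKM. Sox3 was lower, at 4.97, 5.71 and 5.75 RPKM against 20.5, 18.4 and 19.4 RPKM. Alar plate 3 kept to the other 2 for all 3 of these genes, unlike for the progenitor gene Sox2, which was at 41.2, 37.9 and 107 RPKM in the alar plate and was not called.

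Of 15 tested genes of the hedgehog pathway, 3 were higher and 5 lower, beside 9.41% and 5.34% of all genes tested. Besides Shh, the higher genes included the receptor Ptch1, which holds the pathway off until ligand binds and is itself induced by it. Gli3, the chief repressor form of the transcription factors, was at 0.325, 0.42 and 0.392 RPKM in the ventral midbrain and at 13.4, 13.3 and 4.15 RPKM in the alar plate, a difference of -2.89. Boc and Gas1, cell surface co-receptors for the ligand, were at 2.03, 2.05 and 2.03 RPKM against 20.8, 26.5 and 9.22 RPKM and at 1.03, 0.818 and 1.29 RPKM against 6.57, 7.64 and 8.29 RPKM. Gli2 and Gli1 were also lower, at -1.95 and -1.59.

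The groups overlapped for Smo, the membrane protein that passes the signal on inside the cell. It was at 22.2, 18.5 and 20.2 RPKM against 19.9, 17.1 and 12.7 RPKM, a difference of 0.30 that was not called. The call of Ptch1 (15.5, 11.8 and 4.19 RPKM in the alar plate, 22.6 to 23.8 RPKM in the ventral midbrain) was lost without alar plate 3 (difference 0.74; limma, adjusted p = 0.124), as was that of Gli1 (difference -1.32; limma, adjusted p = 0.0713), so that 2 genes were higher and 4 lower there. Both calls were also lost without any 1 ventral midbrain library, Ptch1 at an adjusted p of 0.106 to 0.124 and Gli1 at 0.0626 to 0.0805 (limma), and that of Ptch1 without 6 libraries of other regions (limma, adjusted p = 0.0575 to 0.0644).

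Wnt signalling had 5 higher and 5 lower genes among the 31 tested, and 9 higher and 5 lower without alar plate 3. With all libraries 9.41% of all genes tested were higher and 5.34% lower. The 5 higher ones were mostly ligands. Wnt1, which patterns the midbrain and dopaminergic progenitors, was at 6.46, 5.18 and 4.59 RPKM in the ventral midbrain and at 0.149, 0.325 and 0 RPKM in the alar plate, and Wnt5a, which acts on the maturation and shape of dopaminergic cells, at 41.6, 38.4 and 37.1 RPKM against 4.78, 2.95 and 2.27 RPKM. Wnt4 and Wnt5b were higher by 1.38 and 1.17, and the secreted Dkk3 by 1.56, though Dkk3 was not called when any of 11 libraries was left out (all but alar plate 3 and the dorsal midbrain; limma, adjusted p = 0.0502 to 0.116). The lower genes were the receptors Fzd1 and Fzd8, the secreted Sfrp2 (not in all 3 fits) and the nuclear effectors Tcf7l2 and Lef1, with Lef1 at 5.33, 4.3 and 4 RPKM against 32.2, 46 and 16.6 RPKM. Axin2, a feedback target of the pathway, was not called, at 10.9, 9.81 and 10.2 RPKM against 9.42, 11.4 and 16.7 RPKM.

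Of 42 axon guidance genes 14 were higher and 6 lower (9.41% and 5.34% over all genes tested), 10 and 5 in all 3 fits. The excess of higher genes was not kept without alar plate 3 (10 higher and 10 lower) or with the length trend removed (13 and 12), and the counts were 15 and 3 without alar plate 1 and 9 and 3 without any 1 ventral midbrain library. Cues made by the ventral midline had large differences. Ntn1 (netrin 1), which attracts commissural axons, was at 229, 237 and 253 RPKM in the ventral midbrain and at 17.5, 15.4 and 8.52 RPKM in the alar plate. The repellents Slit2, Slit1 and Slit3 were all higher, Slit2 at 132, 117 and 128 RPKM against 5.1, 4.54 and 5.38 RPKM. Differences were 4.08 for Ntn1, 4.40 for Slit2, 3.11 for Slit1 and 2.69 for Slit3. Nrp2, a semaphorin co-receptor, was higher by 2.86 and Efnb3, an ephrin of the midline, by 1.35.

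Receptors for these cues did not follow one direction. Dcc, the netrin receptor, was at 35.2, 35.1 and 36 RPKM in the ventral midbrain and at 59.8, 60.7 and 17.6 RPKM in the alar plate, and Robo1, a Slit receptor, at 39 to 40.3 RPKM against 87.7, 94.1 and 26.1 RPKM. In both, alar plate 1 and 2 lay above the ventral midbrain and alar plate 3 below it, and neither was called. Robo3, at 18.4, 11.2 and 1.44 RPKM in the alar plate, was called higher by 2.37 but not without alar plate 3 (difference 1.49; limma, adjusted p = 0.0741) nor without any ventral midbrain library (limma, adjusted p = 0.0762 to 0.103). Genes lower in the ventral midbrain included Epha8 (-1.87), Efna2 (-1.42), which maps retinal axons in the tectum with other ephrins, and Sema3f (-0.92).

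PBX and MEIS proteins are homeodomain partners of other factors, and their genes differed by smaller amounts, with Meis2 as the exception. All 12 listed were tested, with 3 higher and 5 lower (2 or 3 lower without any 1 ventral midbrain library). Meis2, which marks the tectum, was at 3.45, 2.07 and 3.58 RPKM in the ventral midbrain and at 39.9, 47.6 and 26 RPKM in the alar plate, a difference of -3.25 (SE 0.86; limma, adjusted p = 0.0238). The groups were apart, and alar plate 3 was the lowest alar library. The call for Meis2 was lost without alar plate 2 or any ventral midbrain library (limma, adjusted p = 0.051 to 0.0845), with differences of -3.35 to -3.06.

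Pbxip1, a cytoplasmic partner that holds PBX proteins back, was higher by 1.61 and Pknox2 by 0.88. Pbx2 was lower at 34.9, 33.5 and 34.8 RPKM against 48.3, 49.9 and 60.8 RPKM, Pknox1 had a difference of -0.73, Meis3 of -0.34 and Pbx4 of -0.50. Pbx3 was among the most abundant of the list at 88.4, 108 and 103 RPKM against 74.1, 88.8 and 44.3 RPKM, where ventral midbrain 1 lay just below alar plate 2, and it was not called. Tgif1, Tgif2 and Meis1 were not called either. Pbx4 lost its call without alar plate 3 or any ventral midbrain library (limma, adjusted p = 0.0531 to 0.121) and Meis3 without ventral midbrain 1 or 2 (0.0537 and 0.0508).

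**Figure D5:**
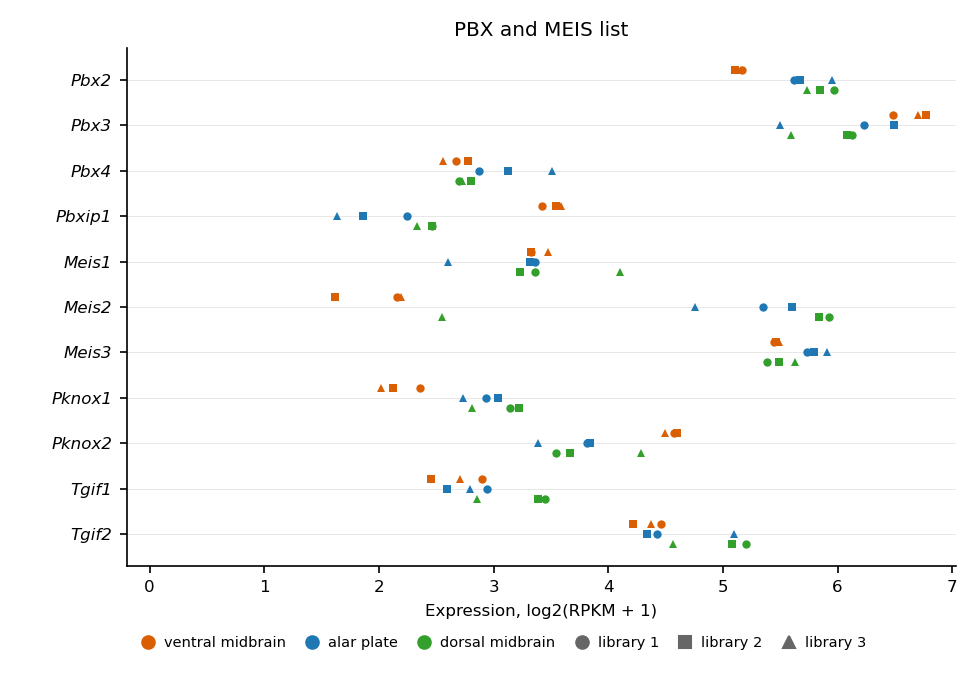
Expression in log2(RPKM + 1) of 11 genes of the PBX and MEIS list in ventral midbrain (orange), alar plate (blue) and dorsal midbrain (green), 1 point per library with the library number as the marker. Meis2 shows the widest gap, with 2.07 to 3.58 RPKM in the ventral midbrain and 26 to 47.6 RPKM in the alar plate, and the other genes shown differ by less than 2 on this scale.

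LIM homeobox genes and their cofactors had 3 higher and 6 lower members of 14, beside 9.41% and 5.34% of all genes tested. Lhx4, a factor of motor and other ventral neurons, was at 15.7, 15.4 and 13.1 RPKM in the ventral midbrain and 0.113, 0 and 0 RPKM in the alar plate, a difference of 3.92 (SE 0.12; limma, adjusted p = 1.15e-09). With Lmx1a and Lmx1b it made up the higher genes. The cofactor genes Lmo1 and Lmo3, whose products compete for the LIM-binding protein Ldb1, were lower together with Lhx2, Lhx9, Ldb1 and Ldb2, Lmo1 at 5.78, 5.39 and 4.76 RPKM against 71.9, 84.1 and 59.2 RPKM. Lhx1 and Lhx5, found in GABAergic and other neurons, were not called (0.18 and -0.42).

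The dorsal midbrain, with 3 libraries of its own, served to place the alar plate values, with the caution that both comparisons use the same alar plate libraries. It differed from the alar plate at 201 of the 13177 genes (1.53%), 147 higher (1.12%) and 54 lower (0.41%). Dorsal midbrain 3 stood apart at some genes, with Tcf7l2 at 22.9, 18.9 and 378 RPKM in dorsal midbrain 1 to 3. This comparison was not refitted without that library or alar plate 3, so a missing call does not show that the regions are alike. Lhx2 was at 97.9, 103 and 58.5 RPKM in the dorsal midbrain, Barhl2 at 48.4, 55.4 and 29.5 RPKM and Tfap2b at 95, 102 and 54.6 RPKM, and none of the 3 was called between dorsal midbrain and alar plate. Foxa2, Th and Fev were at or below 0.793 RPKM in every dorsal midbrain library. Dorsal midbrain genes called higher than the alar plate included Wnt1 (6.26, 9.54 and 5.61 RPKM), Msx1 (6.3, 7.59 and 6.74 RPKM), Ferd3l, Slit1 and Slit2, all of which were also higher in the ventral midbrain. Gas1 and Dmbx1 were called higher in the dorsal midbrain and lower in the ventral midbrain than in the alar plate. Six3 was called lower than the alar plate in both, at 0, 0.0431 and 5.5 RPKM in the dorsal midbrain.

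Markers of cells from outside the neural tissue were checked beside these results. Summed over the meningeal and mesenchymal list, expression was 46.4 to 53.5 RPKM in the ventral midbrain and 223.5, 31.1 and 59.9 RPKM in alar plate 1 to 3, and the collagen genes Col3a1 (55.8, 4.23 and 17.5 RPKM in the alar plate) and Col1a2 were called lower in the ventral midbrain, though not in all 3 fits. Col3a1 was not called without alar plate 1 or 3 or any ventral midbrain library (limma, adjusted p = 0.054 to 0.0854), and Col1a2 not when any of 12 libraries was left out, alar plate 1 and 3 among them (limma, adjusted p = 0.0531 to 0.118). Globin and other erythroid genes summed to 1308 to 1348 RPKM in the ventral midbrain and 1652, 1119 and 3277 RPKM in the alar plate, and none of 7 was called by limma with all libraries (none at an unadjusted p under 0.05 either, and none by voom on recovered reads), while 2 were called lower without alar plate 2; Hbb-b1 and Hbb-b2 are near-identical copies whose reads cannot be separated. Endothelial and microglial sums overlapped between groups, with 1 gene of 12 (Kdr) and 1 of 8 (Cx3cr1) higher, neither of them without ventral midbrain 1 or 2 (limma, adjusted p = 0.0627 to 0.0883), nor Cx3cr1 without alar plate 2 (limma, adjusted p = 0.0596). Of the choroid plexus list 3 genes were tested and Folr1 and Enpp2 were higher, while its marker Ttr, at 89.3 RPKM in alar plate 3 and at most 0.0703 RPKM in the other 5 libraries, was present in too few libraries to be tested. The list summed to 163.7 RPKM in alar plate 3 and to 78.3 to 97.7 RPKM in the other 5. Ribosomal protein genes, which are short, summed to 9351 to 10290 RPKM in the ventral midbrain, 11170 and 10610 RPKM in alar plate 1 and 2 and 21970 RPKM in alar plate 3, and with all libraries none of 40 was called by limma or voom, although 24 were lower at an unadjusted p under 0.05. Limma called 9 of them lower without alar plate 2, 3 without alar plate 1 and 1 with the length trend removed. The part of these differences in the results on neural genes was not tested.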

How the data were processed

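RNA was sequenced from 15 dissected brain samples, and 6 of them, 3 of ventral midbrain and 3 of alar plate, are the subject here. Per the labels' protocols, RNA was extracted with Trizol and libraries were made from 200 ng with an Illumina TruSeq guide for DNA. The authors deposited 1 table of RPKM values for 24264 genes, and the submitters' processing notes name Bowtie and the build mm9; the annotation, counting, strand and filters are, in the sources used here, not given, so overlapping genes and near-identical copies are uncertain. Every sample column of the table was matched to a label.

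Whole reads were recovered from the step of each gene's RPKM values (99.9% of 16612 genes whole in every library, within 0.02 reads for small values and at most 0.15), and gave depth and relative gene length. Tests used limma 3.58.1 under R 4.3.3 with a trend of variance on log2(RPKM + 1), in 1 fit of 15 libraries with the 5 regions as groups and 10 residual degrees of freedom, two-sided, adjusted by Benjamini-Hochberg over the 13177 genes with at least 1 RPKM in at least 3 of the 6 libraries. The test was checked on simulated counts that held no outlying library and no length trend, so that check does not cover the spread of alar plate 3. The length trend was removed from each library with a smoothing spline (5 degrees of freedom). Named genes were the 15 highest and 15 lowest called, non-overlapping genes with a mean of at least 5 RPKM, up to 8 called members of each list, the PBX and MEIS list and exceptions a sentence needed; 52 further genes were chosen after their values were seen, and some genes are not reported here. The members, lists and rules were chosen with earlier results of these data known. Of 593 list entries, 589 matched by symbol and 2 by an older symbol. Alternatives were the pseudocount, the filter, the scaling, voom on recovered reads, array weights, a replicate block, and leaving out libraries.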

Additional observations from a re-analysis of the deposited data

How the results depend on the processing

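The count of 1943 called genes (1240 higher, 703 lower) moved with several settings. It was 1288 (729 higher) with a filter of 5 RPKM, 988 (761 higher, 227 lower) with only the 2 groups fitted, 3804 (1944 and 1860) when alar plate 3 was left out as well, 5188 (2528 and 2660) with array weights, 4138 (2041 and 2097) without alar plate 3, dorsal midbrain 3 and forebrain 1, and 2976 (1804 lower) with the length trend removed; the cause was not tested. Leaving out 1 library gave 1009 to 2918 calls, 761 to 1669 higher and 248 to 1249 lower, the fewest without ventral midbrain 3 and the most without alar plate 1. Of the 171 named genes that were called, 125 kept the call in every alternative in which they were tested, 28 lost it with only the 2 groups fitted, 18 without alar plate 3 and 4 with the length trend removed. Rspo3, not called at -0.39, ran from -1.10 without alar plate 2 to 0.94 without alar plate 3, and reversed as well (0.94) with only the 2 groups fitted and alar plate 3 left out, with the 3 outlying libraries left out, and with array weights (0.91). Same-numbered samples did not deviate together (r = -0.09, 0.14 and -0.13), and with the replicate number as a block 1872 genes were called (1231 higher, 641 lower). At this depth 3 reads of a gene of median length came to 0.0768 to 0.115 RPKM in the 6 libraries, and values below that are not distinguishable from 0, which covers counting error only.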

Other observations

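Other groups of genes are given here beside the share of all genes tested that was higher (9.41%) or lower (5.34%). Of 22 tested cadherin and protocadherin genes, whose products sort cells by adhesion, 7 were higher in the ventral midbrain and none lower, 6 of them in all 3 fits. The counts were 11 higher and none lower without alar plate 1, 7 and 1 without alar plate 3, and 8 and 3 with the length trend removed. Cdh6 was at 14.9, 13.3 and 15.8 RPKM in the ventral midbrain and at 2.34, 3.32 and 0.394 RPKM in the alar plate, and Pcdh9 was at 16.2, 16.4 and 16.5 RPKM against 3.11, 3.26 and 3.3 RPKM. Of 12 retinoic acid genes 2 were higher and 4 lower (2 lower without ventral midbrain 1 or 3). Crabp1, which binds retinoic acid in the cytoplasm, was at 1.58, 1.01 and 0.994 RPKM against 42.9, 48.4 and 34.6 RPKM, and Rxrg, a nuclear receptor of the pathway, was at 5.85, 5.23 and 5.21 RPKM against 0.0894, 0.359 and 0.238 RPKM. Crabp1 was among the genes chosen for lack of overlap, and Rxrg did not overlap between the groups either.

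Among 14 neuropeptide genes 4 were higher and 3 lower. Cartpt was at 47.1, 35.6 and 36.4 RPKM in the ventral midbrain and at 0.226, 0.33 and 1.71 RPKM in the alar plate, Vip at 7.09, 7.29 and 6 RPKM against 0.0451, 0 and 0 RPKM, and Pnoc in the other direction at 0.884, 1.89 and 1.61 RPKM against 21.7, 18.2 and 19.2 RPKM. Id2 and Id3, both inhibitors of helix-loop-helix factors and targets of BMP signalling, went opposite ways: Id3 had a difference of 1.64 (not called without ventral midbrain 1; limma, adjusted p = 0.0504) and Id2 of -1.67. Hmx2 and Hmx3, homeobox factors of the hypothalamus and inner ear, were at 1.66 to 2.6 RPKM in the ventral midbrain and at most 0.0553 RPKM in the alar plate. Of 20 Notch pathway genes 5 were higher and none lower (1 lower without alar plate 1, 2 higher without any 1 ventral midbrain library), 3 of them in all 3 fits (Notch2, Hey1 and Lfng, the last not without alar plate 2 or any ventral midbrain library; limma, adjusted p = 0.0622 to 0.073), with Hey1 at 45.4, 39.5 and 39.3 RPKM against 13.7, 14.8 and 14.2 RPKM. Of 17 FGF genes 3 were higher and 2 lower (7 higher without alar plate 1, 5 without alar plate 3 or hindbrain 1, 1 lower without ventral midbrain 3), and Fgf15, a signal made by neural progenitors, had the largest difference of them at -3.74. The gene with the largest difference on the higher side, C130021I20Rik (6.24), has no name beyond its clone identifier in the table and was at 94.6, 100 and 92.4 RPKM in the ventral midbrain against 0.488, 0.267 and 0.0999 RPKM in the alar plate.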
